A study of Homo sapiens with 4 samples.

Results

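Retinoic acid is a small hormone made inside cells from vitamin A, and RNA levels of 9 genes that make, carry, sense or destroy it were examined in human cells on their way to blood. The genes were taken by symbol from the 58365 rows of the deposited expression table, and each symbol had 1 row. They comprise the enzymes ALDH1A1 and ALDH1A2, the carriers CRABP1 and CRABP2, the receptors RARA, RARB and RARG, and the degrading enzymes CYP26A1 and CYP26B1. RNA-seq libraries (4 in all) were made from H1, a widely used line of human embryonic stem cells, at day 8 of hematopoietic differentiation. All cells received activin A (40 ng/ml) and BMP4 (50 ng/ml) for 2 days, then VEGF (40 ng/ml) and bFGF (50 ng/ml) for 3 days. For the last 3 days VEGF and bFGF were kept, and 2 libraries came from cells given SB431542 (SB), an inhibitor of the type I receptor kinases of TGFβ, while the other 2 came from DMSO controls. The labels give no genetic change and name no retinoid in the medium. The study describes sorting CD31+ cells, a step the labels do not mention, and PECAM1, which encodes CD31, stood between 153 and 197 FPKM in the 4 libraries. FPKM scales the fragments of a gene by transcript length and by the depth of the library, so levels of different genes can be set side by side.

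In the usual scheme, retinol is oxidised to retinal and then, by enzymes of the ALDH1A family, to retinoic acid. CRABP2 hands retinoic acid to receptors of the RAR family, which sit on DNA as partners of RXR receptors, and CYP26 enzymes clear it. Retinoic acid made by ALDH1A2 is known for its part in forming blood stem cells from hemogenic endothelium, and high ALDH1A1 activity is a classical property of blood progenitors. CYP26A1 and RARB are themselves textbook targets of the receptors, through a pair of half-sites separated by a 5-base gap, called a DR5 element.

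Promoter windows from RefSeq (GRCh38.p14) were searched because these target genes serve as readouts of the pathway. Each window runs from 250 bases before to 50 bases after a start of transcription, and all 9 genes were matched, with 16 windows. The half-sites searched, on both strands, were AGGTCA as the core form, AGTTCA as a variant, then GGGTCA as another and GGTTCA as the last, all as direct repeats with a gap of 1, 2 or 5 bases. Repeats were found in 2 of the 16 windows, 1 of CYP26A1 and 1 of RARB, both with the 5-base gap. Among all 35116 windows of RefSeq, 0.0883% held a repeat with that gap, 0.131% held one with a gap of 1 base and 0.0399% one with a gap of 2 bases. The windows with a repeat are shown with that of CRABP2, the expressed gene that differed most between the groups. All are written 5′ to 3′ on the strand of the gene, and the capitals mark the half-sites.
CYP26A1, chr10:93073643-93073942, plus strand: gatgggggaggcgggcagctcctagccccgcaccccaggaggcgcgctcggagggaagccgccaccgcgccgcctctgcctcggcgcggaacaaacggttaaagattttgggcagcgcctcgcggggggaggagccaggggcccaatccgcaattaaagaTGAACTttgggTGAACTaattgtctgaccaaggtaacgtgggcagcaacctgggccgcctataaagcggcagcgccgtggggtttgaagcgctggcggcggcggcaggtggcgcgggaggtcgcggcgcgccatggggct
RARB, chr3:25428013-25428312, plus strand: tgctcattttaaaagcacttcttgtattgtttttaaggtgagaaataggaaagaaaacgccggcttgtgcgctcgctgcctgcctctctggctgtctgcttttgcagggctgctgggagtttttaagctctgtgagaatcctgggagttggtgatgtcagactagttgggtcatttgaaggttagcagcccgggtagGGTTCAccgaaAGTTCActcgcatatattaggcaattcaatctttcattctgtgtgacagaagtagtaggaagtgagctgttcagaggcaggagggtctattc
CRABP2, chr1:156705735-156706034, minus strand: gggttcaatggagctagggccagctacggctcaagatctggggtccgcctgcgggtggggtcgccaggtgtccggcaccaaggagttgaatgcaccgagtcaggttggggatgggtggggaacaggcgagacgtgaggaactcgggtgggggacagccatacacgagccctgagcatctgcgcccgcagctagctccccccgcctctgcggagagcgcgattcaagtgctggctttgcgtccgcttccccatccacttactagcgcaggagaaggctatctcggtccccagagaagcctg
In CYP26A1 the repeat spanned positions -90 to -74 relative to the start and reads on the opposite strand as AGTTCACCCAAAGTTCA. In RARB it spanned positions -53 to -37 and reads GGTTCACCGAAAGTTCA. In the CRABP2 window no such repeat was found, and bases outside the windows were not searched. These matches are descriptions of the letters, and binding was not measured.

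The number of fragments behind each value was estimated from genes with a single transcript, whose lowest FPKM values step by the worth of 1 fragment. The libraries held about 24220000 and 23510000 fragments with DMSO (replicates 1 and 2) and 19680000 and 25990000 fragments with SB. The titles number the replicates 1 and 2 in both groups, and differences within each number are given beside pooled ones. Genes with a mean of at least 1 FPKM in at least 1 group were tested (14909 genes), which 4 of the 9 genes passed: ALDH1A1, CRABP2, RARA and RARG. The other 5 stayed below 1 FPKM in every library. Differences between SB and DMSO are given as log2 fold changes of FPKM + 1, with p-values from limma adjusted over all genes tested by the Benjamini-Hochberg method.

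After TGFβ inhibition, CRABP2 stood lower in both libraries, RARG lay just below the controls, and the groups overlapped for ALDH1A1 and RARA. None of the 4 tested genes (0 genes) passed an adjusted p of 0.05 with limma, a threshold that 0.134% of all genes tested passed, 0.0268% higher and 0.107% lower with SB. At an unadjusted p under 0.05, 1 of the 4 was found (CRABP2, lower), against 9.96% of all genes tested, 5.16% in that direction. A log2 fold change of 1 or more in size was seen in 0 of the 4 and in 3.72% of all genes tested. In 2 of the 4, CRABP2 and RARG, both SB libraries lay below both DMSO libraries, as they did in 16% of all genes tested, and in 0 of the 4 did both lie above, against 21.5%. Their median log2 fold change was -0.20, beside 0.04 over all genes tested. The labels do not say whether the replicates came from separate cultures, and the general statement on independent experiments in the study gives another number than that of the libraries, so the p-values measure the spread between these libraries, which may be technical. An exact permutation test of 2 against 2 libraries cannot give a two-sided p below 0.333, and none was used.

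**Figure D1:**
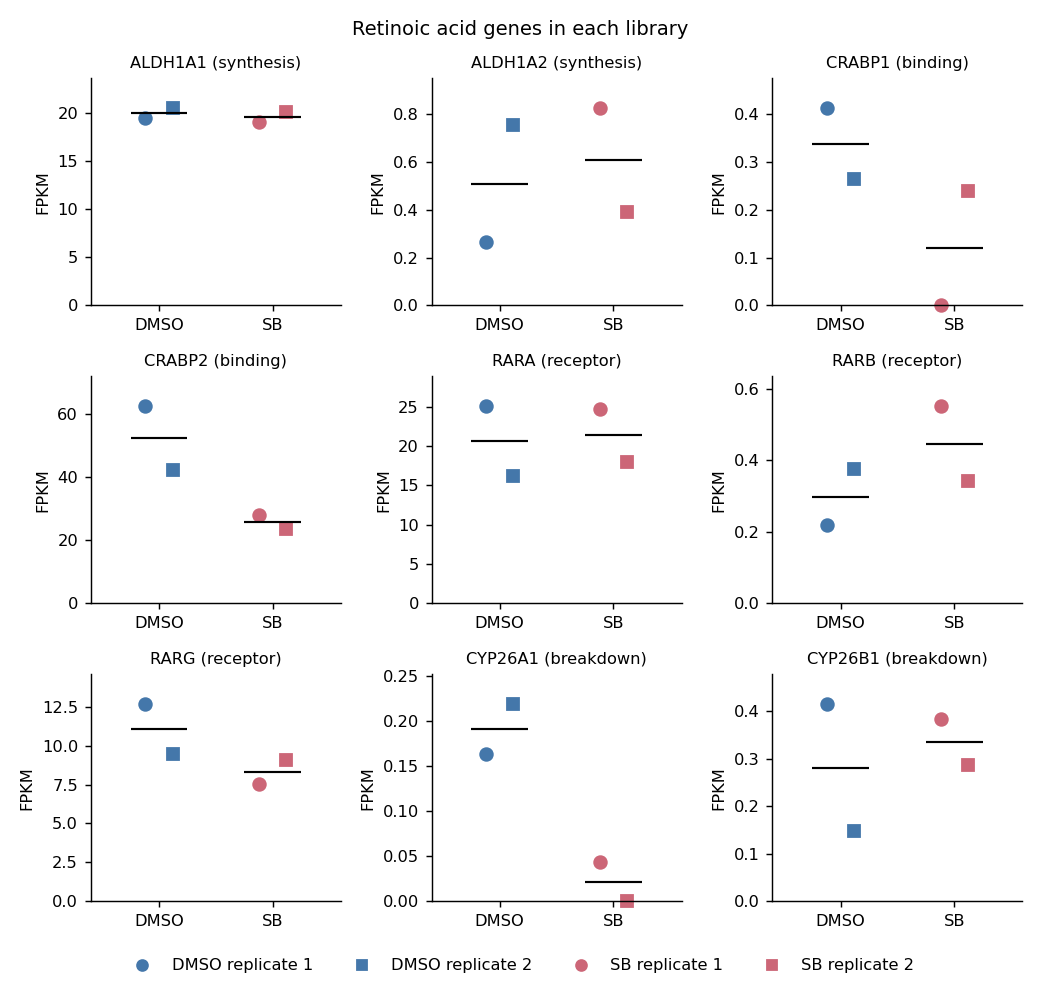
FPKM (vertical axes, each from 0) of the 9 genes in the 4 libraries. Points are single libraries, with circles for replicate 1 and squares for replicate 2, and bars mark group means (n = 2). CRABP2 reads 62.5 and 42.3 FPKM in DMSO and 28.1 and 23.5 FPKM in SB, ALDH1A1 is level, and 5 of the 9 panels end below 1 FPKM.

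ALDH1A1 carried nearly all of the RNA for the enzymes of the last synthesis step. This cytosolic aldehyde dehydrogenase (ENSG00000165092.12, GRCh38 chromosome 9, 72900662 to 73080442, minus strand) read 19.4 and 20.5 FPKM with DMSO, against 19.0 and 20.1 FPKM with SB. The groups overlap, and the level hardly differs between any of the 4 libraries. Its mean was 19.97 ± 0.747 FPKM with DMSO and 19.57 ± 0.757 FPKM with SB (SD, n = 2 each), and the log2 fold change was -0.03 (95% interval -0.44 to 0.38, limma adjusted p 0.988). Within replicate numbers 1 and 2 the differences were -0.029 and -0.027. The ALDH1A1 level exceeded that of 68.0% of the genes tested.

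ALDH1A2, the main retinoic acid producing enzyme of the early embryo, stayed below 1 FPKM in every library. It was measured (ENSG00000128918.14, GRCh38 chromosome 15, 57953424 to 58497866, minus strand) at 0.263 and 0.753 FPKM with DMSO and at 0.824 and 0.389 FPKM with SB. The groups overlap, and the order of the treatments is opposite within the replicate numbers. These values correspond to at most 24.4, 67.5, 61.9 and 38.6 fragments if all came from the longest of its 8 coding transcripts. AQP9, whose exons overlap ALDH1A2 on the other strand, was listed at 0 in all 4 libraries. In FPKM, ALDH1A1 exceeded ALDH1A2 by a factor of 73.9 and 27.2 in the DMSO libraries and of 23.1 and 51.7 in the SB libraries. A related enzyme outside the chosen genes, ALDH1A3, read between 0.354 and 1.204 FPKM and did not reach the filter.

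CRABP2 had the highest level of the 9 genes in the DMSO libraries and the largest difference between the groups among the 4 genes tested. It encodes the carrier that brings retinoic acid to the nucleus (ENSG00000143320.8, GRCh38 chromosome 1, 156699606 to 156705816, minus strand) and read 62.5 and 42.3 FPKM with DMSO against 28.1 and 23.5 FPKM with SB. Both SB libraries were lower than either DMSO library, and replicate 1 was the higher of each group. The mean was 52.4 ± 14.3 FPKM with DMSO and 25.8 ± 3.29 FPKM with SB (SD, n = 2 each), so that the SB mean was 0.492 of the DMSO mean. The log2 fold change was -0.98 (SE 0.25, 95% interval -1.62 to -0.33), which did not pass the adjustment (limma adjusted p 0.307, unadjusted p 0.0118). By unadjusted p it ranked at position 573 among the 14909 genes. Within replicate numbers the differences were -1.13 and -0.82, and the pooled value is their mean. The DMSO libraries differed from each other by -0.55 and the SB libraries by -0.25 on the same scale (replicate 2 minus replicate 1). In bulk libraries, fewer cells that express a gene and less RNA per cell cannot be told apart.

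The genes whose profile over the 4 libraries lay closest to that of CRABP2, by Euclidean distance of centred log2(FPKM + 1) values, were CLDN4 (0.0672), CX3CL1 (0.0770) and RHOD (0.0909). CLDN4 encodes an epithelial tight junction protein and CX3CL1 a membrane-bound chemokine. CLDN4 read 3.34 and 1.93 FPKM with DMSO and 0.962 and 0.747 FPKM with SB, and the highest value among these genes was 3.45 FPKM (RHOD). Adding 1 to FPKM understates changes at such low levels, so in FPKM these genes fell more steeply than CRABP2.

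Summed levels of marker genes of other tissues were also lower with SB, and their part in the CRABP2 difference was not tested. The marker lists were chosen with earlier results of these data known. Counts of lower or higher markers cover all listed genes, also those below the filter. Over all genes tested, both SB libraries lay below both DMSO libraries in 16% and above both in 21.5%. The 12 listed endoderm and liver markers summed to 343.5 and 344.7 FPKM with DMSO and to 79.6 and 50.2 FPKM with SB, and 9 of the 12 had both SB libraries lower. SOX17, which the study's background credits with keeping cells endothelial, is on this list, and its groups overlap. It gave 53.3 and 17.5 FPKM of the DMSO sums and 49.3 and 17.3 FPKM of the SB sums. The 10 mesenchymal markers summed to 369.5 and 322.8 FPKM with DMSO and to 179.4 and 175.1 FPKM with SB, with 7 lower. Most of this sum came from collagens, with COL1A1, COL1A2 and COL3A1 at 107.5, 111.7 and 118.5 FPKM in DMSO replicate 1. The 10 epicardial and cardiac markers summed to 64.9 and 37.9 FPKM with DMSO and to 15.4 and 10.1 FPKM with SB. In this list 7 were lower and 2 higher, and only 3 of the 10 had a mean of at least 1 FPKM. NKX2-5 alone gave 45.3 FPKM of the sum in DMSO replicate 1. The 8 neural markers summed to 81.4 and 46.3 FPKM with DMSO and to 46.1 and 27.4 FPKM with SB, with 2 lower. Only 2 of the 8, TUBB3 and NES, had a mean of at least 1 FPKM. TUBB3 gave 51.4 FPKM of the sum in DMSO replicate 1, and its groups overlap. For each of these lists both SB sums lay below both DMSO sums, as for CRABP2, though the neural sums nearly met. Endothelial markers summed to 1857 and 1633 FPKM with DMSO and to 1814 and 1625 FPKM with SB. Hematopoietic markers summed to 1078 and 1090 FPKM against 977 and 989 FPKM, although 7 of these 10 were higher in both SB libraries. HBE1, which was lower with SB, gave 614 FPKM of the sum in DMSO replicate 1. The 10 housekeeping genes summed to 6545 and 6492 FPKM with DMSO and to 8081 and 8071 FPKM with SB. The 6 pluripotency markers summed to 70.8 and 90.9 FPKM against 94.1 and 115.5 FPKM. Hence the hematopoietic sums were also separated, lower with SB, and the housekeeping and pluripotency sums were separated, higher with SB. Of the listed markers in these groups, 0 were at 0 in all 4 libraries.

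**Figure D2:**
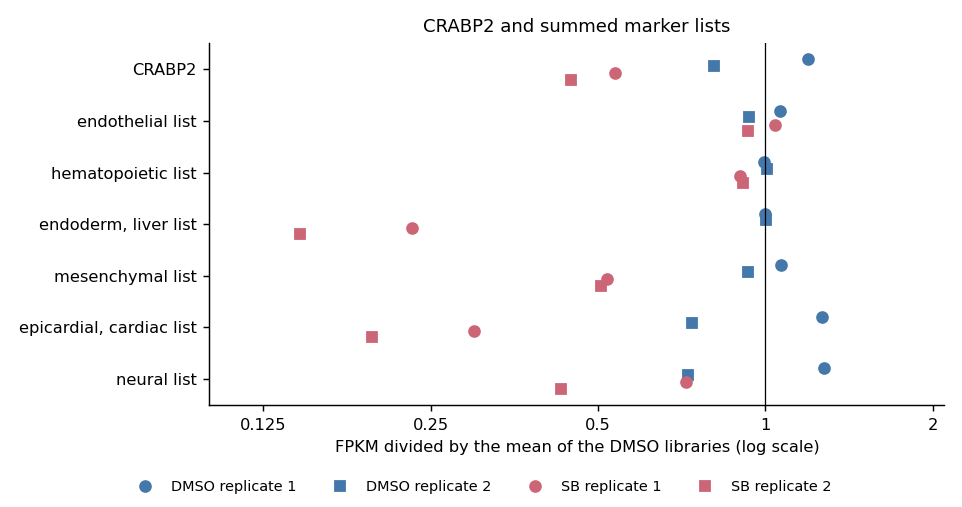
CRABP2 and the summed FPKM of 6 marker lists in each library, divided by the mean of the DMSO libraries (horizontal axis, log scale). Circles are replicate 1 and squares replicate 2. The SB libraries lie to the left for CRABP2 and for the endoderm and liver, mesenchymal, and epicardial and cardiac lists. They lie narrowly to the left for the hematopoietic list, and close to the DMSO libraries for the endothelial list. In the neural list they also lie to the left, but SB replicate 1 nearly meets DMSO replicate 2.

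CRABP1, the second carrier, was barely present and gave whole numbers of fragments, since only 1 coding transcript is annotated. It was measured (ENSG00000166426.7, GRCh38 chromosome 15, 78340324 to 78348230, plus strand) at 0.413 and 0.263 FPKM with DMSO, or 5 and 3 fragments. With SB it was listed at 0 in replicate 1 and read 0.239 FPKM in replicate 2, or 0 and 3 fragments, all within 0.03 of a whole number. In FPKM both SB libraries lay below both DMSO libraries, but DMSO replicate 2 and SB replicate 2 rest on 3 fragments each. A count of 0 allows up to 3 fragments, which in SB replicate 1 would be 0.313 FPKM, so a difference in CRABP1 was not detectable at this depth. Such limits cover counting error only.

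FABP5, a carrier outside the CRABP family, stood higher with SB. This protein, which can carry retinoic acid to the receptor PPARD, read 41.3 and 44.0 FPKM with DMSO and 51.9 and 55.0 FPKM with SB. Both SB libraries lay above both DMSO libraries, as in 21.5% of all genes tested, and the log2 fold change was 0.32 (limma adjusted p 0.634). The housekeeping sum was also higher with SB (8081 and 8071 FPKM, against 6545 and 6492 FPKM with DMSO). The ratio of CRABP2 to FABP5 was 1.51 and 0.962 in the DMSO libraries and 0.541 and 0.427 in the SB libraries, lower in both SB libraries than in either DMSO library. This ratio was chosen with the values known and carries no test.

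The receptors were represented by RARA and RARG, with RARB below 1 FPKM in every library. RARA (ENSG00000131759.17, GRCh38 chromosome 17, 40309192 to 40357643, plus strand), the broadly expressed receptor, read 25.1 and 16.2 FPKM with DMSO and 24.7 and 18.0 FPKM with SB. Its groups overlap, and the libraries pair by replicate number rather than by treatment. The mean was 20.7 ± 6.29 FPKM with DMSO and 21.4 ± 4.69 FPKM with SB (SD, n = 2 each), and the log2 fold change was 0.06 (95% interval -0.68 to 0.80, limma adjusted p 0.983). The differences within numbers were -0.024 and 0.15. Without DMSO replicate 2 the fold change turned to -0.24, and without SB replicate 1 to -0.15. An antisense gene with exons inside RARA, RARA-AS1, read between 2.66 and 3.74 FPKM, and whether counting used strand is unknown here, so that part of the RARA value is uncertain. The mitochondrial share of summed FPKM also followed the replicate number, at 5.88% and 9.92% with DMSO and 6.64% and 10.2% with SB, and its part in the RARA values was not tested.

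RARG, the receptor subtype best known from skin and cartilage (ENSG00000172819.16, GRCh38 chromosome 12, 53210567 to 53232980, minus strand) read 12.7 and 9.45 FPKM with DMSO and 7.54 and 9.07 FPKM with SB. The groups did not overlap, but DMSO replicate 2 and SB replicate 2 were nearly equal. The mean was 11.1 ± 2.27 FPKM with DMSO and 8.30 ± 1.08 FPKM with SB (SD, n = 2 each), with -0.37 as the log2 fold change (95% interval -0.92 to 0.19, limma adjusted p 0.719). The differences within numbers were -0.68 and -0.055, so replicate 1 carried most of it. Without DMSO replicate 1 the fold change was -0.17.

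RARB (ENSG00000077092.18, GRCh38 chromosome 3, 25174332 to 25597932, plus strand), with the DR5 repeat shown above in 1 of its promoter windows, read 0.220 and 0.377 FPKM with DMSO and 0.552 and 0.342 FPKM with SB. The groups overlap. These values stand for 15.0, 24.8, 30.4 and 24.9 fragments if all came from its longest coding transcript, and 5.34, 8.74, 10.7 and 8.78 if all came from the shortest. Part of RARB overlaps exons of TOP2B on the other strand, which read between 27.0 and 41.0 FPKM.

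Of the summed RAR level, RARA made up 66.1% and 62.3% in the DMSO libraries and 75.3% and 65.7% in the SB libraries. The RARG share was 33.3% and 36.3% with DMSO and 23.0% and 33.0% with SB, and the RARB share stayed between 0.580% and 1.69%. The shares of RARA were 64.2 ± 2.71% with DMSO and 70.5 ± 6.78% with SB (SD, n = 2 each), a difference within the spread of the SB libraries. SB replicate 1 stood apart with the highest RARA share. Among the RXR partners, RXRA made up 70.7% and 65.1% of the RXR sum with DMSO and 81.3% and 72.8% with SB. RXRB read 11.4 and 9.19 FPKM with DMSO and 7.65 and 7.98 FPKM with SB (log2 fold change -0.35, limma adjusted p 0.663).

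**Figure D3:**
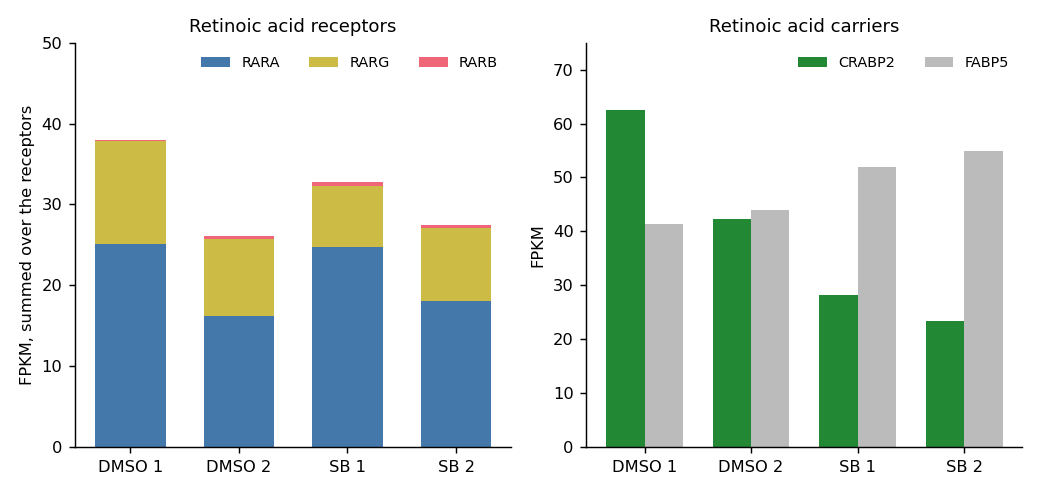
Left, FPKM of RARA, RARG and RARB stacked for each library. Right, FPKM of CRABP2 and FABP5 for each library. Both vertical axes start at 0. RARA makes up between 62.3% and 75.3% of each receptor bar and RARB is a thin cap, while CRABP2 is above FABP5 in DMSO replicate 1 and below it in the other 3 libraries.

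Both CYP26 enzymes that clear retinoic acid were below 0.5 FPKM. CYP26A1 (ENSG00000095596.11, GRCh38 chromosome 10, 93073475 to 93077890, plus strand) read 0.163 and 0.218 FPKM with DMSO and 0.0434 FPKM with SB replicate 1, and was listed at 0 in SB replicate 2. Both SB libraries were below both DMSO libraries. With its coding transcripts of 2125 and 2245 nt these values stand for between 7.30 and 7.77 fragments and between 9.44 and 10.1 fragments in the DMSO libraries. In SB replicate 1 they stand for between 1.57 and 1.67 fragments. A count of 0 in SB replicate 2 would allow up to 0.0627 FPKM. In the limma fit without the filter on low values, its unadjusted p was 0.0134 and its adjusted p 0.379. It is the other gene of the set with a DR5 repeat, found in 1 of its windows, and its difference rests on fewer than 20 fragments in all 4 libraries together. Another gene, AL358613.3, has exons on the same strand that overlap those of CYP26A1. No row of the deposited expression table carries this symbol, so reads of both cannot be told apart.

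CYP26B1 (ENSG00000003137.8, GRCh38 chromosome 2, 72129238 to 72148038, minus strand) read 0.416 and 0.148 FPKM with DMSO and 0.384 and 0.288 FPKM with SB. The groups overlap, and the treatments are ordered oppositely within the replicate numbers. Over its shortest and longest coding transcripts the values stand for between 0.972 and 44.9 fragments in the DMSO libraries. The third family member, CYP26C1, was at most 0.131 FPKM.

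By level, the expressed genes fell in the order CRABP2, RARA, ALDH1A1 and RARG in both groups. In both groups, RARA and ALDH1A1 did not differ beyond their spread. With SB, the lower CRABP2 library was below the higher RARA library, so these neighbours overlapped too. RARG was below the other 3 genes in every library. The low genes followed with DMSO in the order ALDH1A2, CRABP1, RARB, CYP26B1 and CYP26A1, each overlapping its neighbour, with means between 0.191 and 0.508 FPKM.

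Of the other genes of vitamin A handling, 14 of 32 were tested. Of these, 1 fell at an adjusted p of 0.05 and 0 rose, against 0.107% lower and 0.0268% higher over all genes tested. The list was chosen with earlier results of these data known, so this comparison is a description only. At an unadjusted p under 0.05, 2 were lower and 0 higher, against 5.16% and 4.8%. TTR, a liver-secreted protein that carries retinol in plasma together with RBP4, read 45.0 and 57.9 FPKM with DMSO and 5.45 and 5.55 FPKM with SB. Its groups are far apart, and it fell by 3.00 on the log2 scale (limma adjusted p 0.0353). It is also 1 of the 12 endoderm and liver markers. Leaving out any 1 library ended this call (limma adjusted p 0.0984 to 0.171), as did dropping the filter on low values (0.3005). RBP4 read 3.73 and 1.96 FPKM with DMSO and 0.195 and 0.393 FPKM with SB (log2 fold change -1.54, limma adjusted p 0.217), also without overlap. With a pseudocount of 0.1 this fold change was -2.88 (limma adjusted p 0.202), and the SB mean was 0.103 of the DMSO mean. RDH11, a retinal reductase, read 31.2 and 34.0 FPKM with DMSO and 40.1 and 38.9 FPKM with SB (log2 fold change 0.27, limma adjusted p 0.719). STRA6, the cell surface receptor for RBP4, was chosen after its values were seen. It was present at 7.80 to 13.5 FPKM and RDH10, which makes retinal, at 1.54 to 1.90 FPKM, each with overlapping groups.

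Of the 14 receptor partners and cofactors, 13 were tested, and 0 passed an adjusted or an unadjusted p of 0.05 in limma, against 0.134% and 9.96% of all genes tested. NCOR1, a corepressor of unliganded receptors, read 25.12 and 25.03 FPKM with DMSO and 31.6 and 28.9 FPKM with SB (log2 fold change 0.26, limma adjusted p 0.732). The list as a whole had a median log2 fold change of 0.04, the same as that of all genes tested.

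Of 38 genes listed as retinoic acid targets, 18 were tested and 0 passed the adjustment, with 4 higher and 2 lower at an unadjusted p under 0.05, against 4.8% and 5.16% of all genes tested. Both directions occurred among them, and their median log2 fold change was 0.09. SKAP2, an adaptor protein encoded beside the HOXA cluster, read 3.60 and 4.94 FPKM with DMSO and 7.398 and 7.508 FPKM with SB (log2 fold change 0.69, limma adjusted p 0.366). ICAM1, an adhesion molecule of activated endothelium, read 3.61 and 3.40 FPKM with DMSO and 5.51 and 5.74 FPKM with SB (log2 fold change 0.56, limma adjusted p 0.386). BTG2, an antiproliferative gene, read 29.2 and 34.5 FPKM with DMSO and 18.6 and 22.6 FPKM with SB (log2 fold change -0.61, limma adjusted p 0.409). The remaining 3 at an unadjusted p under 0.05, named after their values were seen, were NR2F2 (0.87) and MEIS1 (0.55), which were higher, and NAV2 (-0.74), which was lower. The 8 HOXA genes of the list were all below the filter, with at most 0.282 FPKM in any library, whereas 4 of the 5 HOXB genes passed it. DHRS3, a retinal reductase induced by retinoic acid, was also below the filter and was chosen after its values were seen. It read 0.965 and 0.860 FPKM with DMSO and 0.354 and 0.294 FPKM with SB, without overlap.

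**Figure D4:**
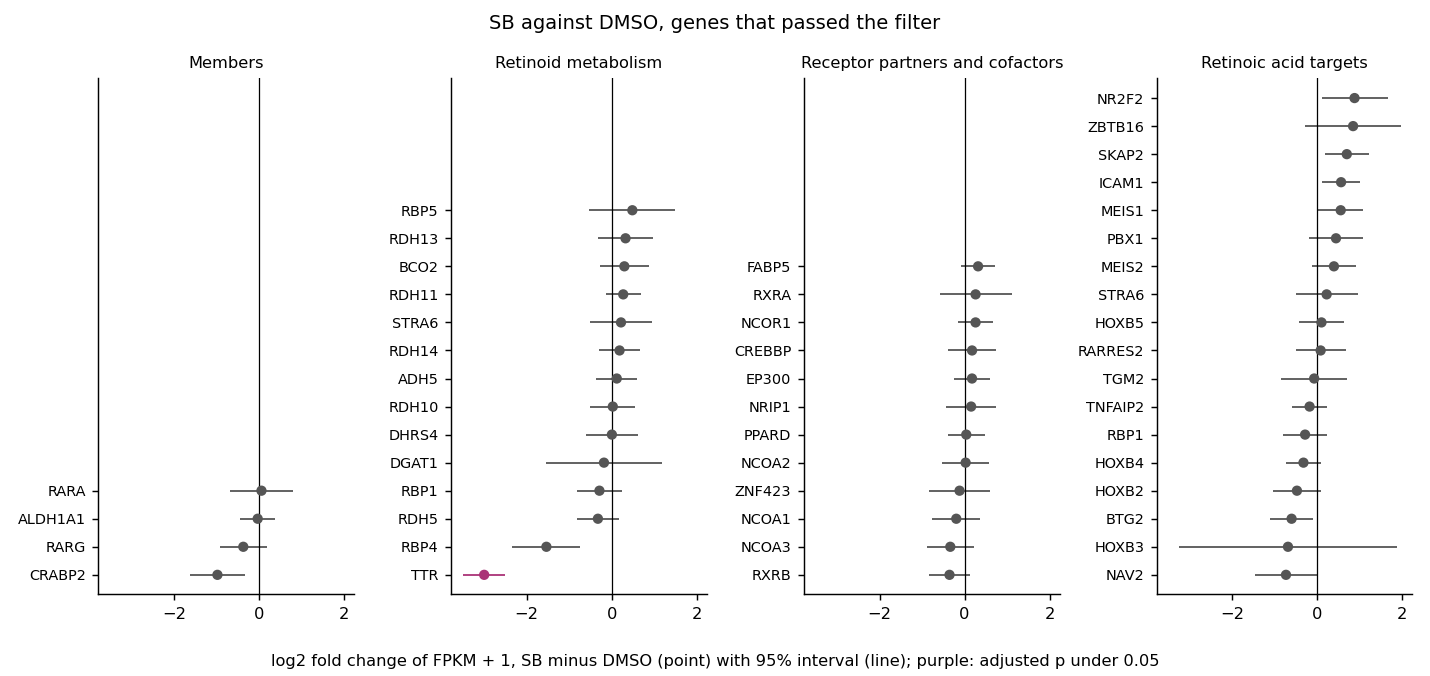
Log2 fold change of FPKM + 1, SB minus DMSO (horizontal axis), with the 95% interval from limma, for the 4 tested members and the tested genes of the 3 other pathway lists, except 1 gene that is not shown. Purple marks an adjusted p under 0.05, reached by TTR alone among these genes. The interval of CRABP2 lies below 0, and those of ALDH1A1, RARA and RARG include 0.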

How the data were processed

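The table deposited by the authors holds FPKM values, with 1 column per library (2 DMSO and 2 SB). Per the labels, TruSeq libraries were made from total RNA, and the submitters' processing notes name BWA, Bowtie, RSEM and the build hg19, without versions. Of the identifiers, 95.5% had the same version in GENCODE release 29, and 99.8% of these rows had its GRCh38 position, so GRCh38 coordinates, counted from 1, are given. Strand use is not given in the sources used here.

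Values were transformed to log2(FPKM + 1), which understates changes of low genes, and tested with limma 3.58.1 in R 4.3.3 (group as the only term, trend, two-sided, all 4 libraries). Depth was estimated from single-transcript genes over 500 nt. Of those under 4.5 fragments, 93.7% to 94.2% lay within 0.03 of a whole number. Members and lists were chosen with earlier results of these data known. Beyond the members, up to 3 genes per list with the smallest unadjusted p are named, together with PECAM1 and the 3 profiles nearest to the member that differed most. Other genes were chosen after their values were seen. The values of 1 listed gene are not reported here.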

Additional observations from a re-analysis of the deposited data

How the results depend on the processing

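The fit was repeated with a replicate block, with no minimum level or one of 5 FPKM in 2 libraries, after quantile normalization or scaling to the upper quartile, with 0.1 as pseudocount, and without each library. Genes called numbered 20 (16 lower), 1564 (744 lower) with the replicate block, 0 without the filter (2739 at an unadjusted p under 0.05), 31 with quantile normalization, and 0 to 14 (0 to 12 lower) when 1 library was left out, with 0 without DMSO replicate 1, 10 without SB replicate 1 and 9 without SB replicate 2. Called members numbered 0, but 1 with the block, where CRABP2 had a limma adjusted p of 0.0133 (0.0133 to 0.916 over its alternatives). With the block RBP4 (0.0439), SKAP2 (0.0477) and BTG2 (0.0192) were called too. A log2 fold change of 1 or more in size was seen in 0 members, in 1 (CRABP2) under quantile normalization or upper-quartile scaling, and in 0 to 1 without a library (1 without DMSO replicate 2 or SB replicate 1). Called pathway genes numbered 1, 10 with the block, 0 without the filter and 0 without any 1 library, and those at an unadjusted p under 0.05 numbered 8, 21 with the block and 2 to 8 without a library. The labels do not say what the number marks, and deviations of same-numbered libraries correlated (Pearson's r 0.527 across genes, which are not independent), so the pairing is a hint from the data. Without single libraries CRABP2 ranged from -1.25 to -0.70, RARG from -0.56 to -0.17, ALDH1A1 from -0.066 to 0.0094 and RARA from -0.24 to 0.36, and only the last 2 changed sign among the 13 named genes. With all libraries kept, 72 of 77 values of these genes kept direction and side of the threshold and 0 changed direction. The 5 members below 1 FPKM were tested only without the filter.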

Other observations

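A target gene and a receptor gene differed more between replicate numbers than between treatments. They were chosen after their values were seen, and the difference between numbers was not tested. HOXB3, a homeobox gene of the target list, read 163.3 and 89.8 FPKM in the libraries of replicate 1 (DMSO and SB) and 32.3 and 22.1 FPKM in those of replicate 2. RXRA, the most abundant RXR receptor, read 28.5 and 34.5 FPKM in replicate 1 and 18.2 and 21.8 FPKM in replicate 2.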
